A study of Mus musculus with 77 samples.

Results

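Meis1, Hoxa9, Mecom, Prdm16 and Hlf are transcription factor genes known for keeping blood stem and progenitor cells in an undifferentiated state. They were described here through the enhancers that the authors assigned to them in a table of 44002 mouse enhancers of the granulocyte-monocyte lineage. Every enhancer whose assigned gene was one of the 5 was taken, which gave 51 of the 44002: 22 of Meis1, 7 of Hoxa9, 4 of Mecom, 6 of Prdm16 and 12 of Hlf. The members were chosen by gene name and not by a measured value, although earlier results of these data were known.

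Cells were sorted from fresh mouse bone marrow. LSK cells carry no mature lineage markers and have Sca-1 and Kit on their surface; they include the stem cells. The preGM (lineage-negative, Sca-1-negative, Kit-positive, CD150- and CD105-negative) and the GMP (lineage-negative, Sca-1-negative, Kit-positive, CD150-negative, Fc gamma receptor II/III-positive) are progenitors committed to granulocytes and monocytes, and granulocytes are the mature cells with Mac1 and Gr-1. These 4 stages were wild type, and preGM were also taken from CEBPA knockout (KO) animals; the labels used here do not say how the gene was deleted, nor give the animals' age. The table holds 1 value per enhancer for each group and assay, each matching a group of 2 listed libraries, so there is no spread between replicates, no difference below was tested, and depth is unknown.

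Meis1 and Hoxa9 are homeobox proteins that bind DNA together with PBX partners, and their joint overexpression is a well-known driver of myeloid leukaemia. Mecom, which encodes EVI1, and Prdm16 are related zinc finger proteins of the PRDM family that are needed for stem cell maintenance. Hlf is a basic leucine zipper factor of the PAR family whose expression marks stem cells in bone marrow. CEBPA and PU.1 are the factors that drive the granulocyte-monocyte lineage, H3K27ac marks active enhancers, and H3K4me1 marks enhancers whether active or not.

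Promoter windows from RefSeq (build GRCm38.p6, 250 bases before to 50 after each start) matched 5 of 5 genes by symbol, with 6 windows, 2 of them of Mecom. Stretches of the first Mecom window and of the Prdm16 window are printed because they shared a run of 24 bases, found in 2 of 32851 windows, these 2. The run began 26 bases after the Mecom start (window chr3:30509710-30510009) and 9 bases after the Prdm16 start (window chr4:154636824-154637123), both on the minus strand. It reaches the end of the Mecom window, so 24 bases is the length within the windows and the shared stretch may be longer. The next longest run shared by windows of different genes among the 5 was 11 bases, between Prdm16 and Hlf. The shared run is in capitals, 5′ to 3′ on the gene's strand:
Mecom start 1: aacGCGCATGTGCGAAGGTGTCCAAAC
Prdm16: tgtGCGCATGTGCGAAGGTGTCCAAACtg

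The Hoxa9 and Meis1 promoters are shown because these genes had the largest expression differences between LSK and granulocytes among the 5, and because PU.1, an ETS factor, was mapped in the same cells. Capitals mark the ETS core GGAA or its reverse complement TTCC. Before the Hoxa9 start (window chr6:52227321-52227620, minus strand) there were 9 such cores, against a median of 3 over all windows, and 0.505% of windows had as many. Before the Meis1 start (window chr11:19018920-19019219, minus strand) there were 3. The core was counted after the windows had been seen.
Hoxa9: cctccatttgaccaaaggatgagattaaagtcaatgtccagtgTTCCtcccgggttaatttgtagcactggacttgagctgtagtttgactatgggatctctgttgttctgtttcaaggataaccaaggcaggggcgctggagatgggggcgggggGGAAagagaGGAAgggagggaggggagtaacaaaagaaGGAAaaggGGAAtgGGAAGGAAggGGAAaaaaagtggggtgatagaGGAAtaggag
Meis1: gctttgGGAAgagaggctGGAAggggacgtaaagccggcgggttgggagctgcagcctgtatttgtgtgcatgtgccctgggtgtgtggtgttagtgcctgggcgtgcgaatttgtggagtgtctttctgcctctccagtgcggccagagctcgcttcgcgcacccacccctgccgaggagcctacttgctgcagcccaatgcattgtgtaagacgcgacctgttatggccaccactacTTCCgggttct

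Longer motifs were searched on both strands. The PU.1 motif GAGGAAG, which contains the core GGAA, was in 1 of the 6 windows, that of Hoxa9, 87 bases before the start, and in 13.6% of all windows. The MEIS motif TGACAG was in 1 window, that of the second Mecom start, 86 bases before it on the opposite strand, and in 19.2% of all. The C/EBP motif TTGCNNAA was in 0 of 6 windows and 10.8% of all, and the PAR bZIP motif TTACGTAA in 0 of 6 and 0.119% of all. The motif matches in capitals are:
Hoxa9 PU.1 motif: ggggggaaagaGAGGAAGggagggagggg
Mecom start 2 MEIS motif: agaggaggctgCTGTCActttaaaaatt

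The enhancers of each of the 5 genes lay in a run, with no enhancer of another gene between them. Coordinates from here on are those of the authors' table, in build mm9. The 22 Meis1 enhancers spread over 150.6 kb of chromosome 11 (18770795 to 18921351), with 10 of the gaps between neighbours under 1000 bp. The 7 Hoxa9 enhancers lay within 8.87 kb of chromosome 6 (52174641 to 52183513), and the 12 Hlf enhancers within 64.2 kb of chromosome 11 (90217222 to 90281411). The 6 Prdm16 enhancers covered 118 kb of chromosome 4 (153893585 to 154011653). The 4 Mecom enhancers on chromosome 3 were the most scattered, with 1 of them 492549 bp away from the other 3. The enhancers were 40 to 846 bp wide, with a median of 156 bp against 194 bp over the table. Neighbours under 1000 bp apart may share signal, and all enhancers share the same libraries, so they are not replicates of a condition.

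The expression values deposited beside the enhancers were highest in LSK cells for 4 of the 5 genes and lower in granulocytes than in LSK for 5 of 5, where 60.1% of all genes were lower. The table gives 1 expression value per gene in LSK, preGM, GMP and granulocytes, and a separately scaled pair for wild type and KO preGM. Whether these values come from the listed RNA libraries is not stated, and the 2 wild type preGM columns correlate across genes with r = 0.78 only, against 0.97 for LSK with preGM, so values were compared within each set alone. As an example of how far the sets differ, Hoxa9 in wild type preGM stood at 3012 in the stage set and at 129 in the genotype set.

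Meis1 was at 1096 in LSK, 797 in preGM, 88.6 in GMP and 29.3 in granulocytes. Its largest step was between preGM and GMP, with a log2 ratio of -2.80 computed with a pseudocount of 30. Hoxa9 was at 3636, 3012, 1955 and 19.3 in the same order. Unlike Meis1 it was still high in GMP, at a log2 ratio to preGM of -0.62, and nearly all of its difference lay between GMP and granulocytes, at -5.33. Its granulocyte to LSK ratio of -6.22 was the lowest of the 10096 genes in the table.

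Mecom was at 429 in LSK, 207 in preGM, 24.7 in GMP and 17.9 in granulocytes. Hlf was at 1036, 619, 79.2 and 125, so that granulocytes were slightly above GMP. Both genes took the preGM to GMP step of Meis1, with log2 ratios of -2.12 for Mecom and -2.57 for Hlf. Prdm16 was at 42.9, 70.3, 27.8 and 27.2, the only one of the 5 with its highest value in preGM. Its value in GMP was 2.53-fold below that in preGM as a plain ratio, and -0.80 as a log2 ratio with the pseudocount of 30, so that no step reached 2-fold on this scale.

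A log2 ratio of 1 or more, or of -1 or less, was counted as 2-fold. By this count 3 of the 5 genes were lower in GMP than in preGM, where 3.19% of all genes were, and 0 were higher, against 3.11%. Between GMP and granulocytes 2 of 5 were lower and 0 higher, against 19.7% and 12% of all genes. Meis1 was barely past the threshold there and dropped out in 3 of the other settings tried, leaving Hoxa9. Between LSK and granulocytes 4 of 5 were lower and 0 higher, against 15.6% and 12.6%. Between LSK and preGM 0 of 5 were lower and 0 higher, against 0.891% and 1.88%. Mecom was close, at 2.07-fold lower in preGM as a plain ratio and -0.95 on this scale. In these bulk samples, fewer cells of a type and less RNA per cell cannot be told apart.

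**Figure D1:**
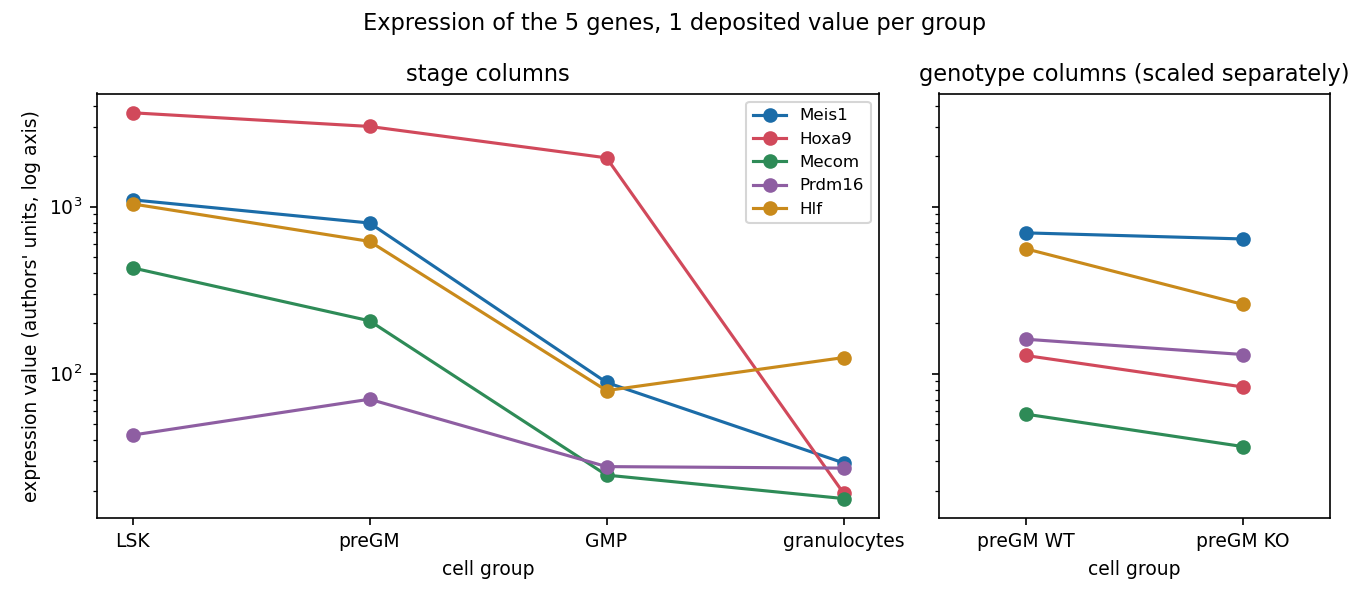
Deposited expression value (log axis, authors' units) of each gene in the 4 wild type stages (left) and in wild type and KO preGM (right, scaled separately); each point is the 1 value of a group, with no error. Meis1, Mecom and Hlf drop between preGM and GMP (Meis1 from 797 to 88.6), Hoxa9 between GMP and granulocytes (from 1955 to 19.3).

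The sorted cells carried the markers of their stages. The summed expression of 6 measured stem and multipotent progenitor markers of 8 listed was 9048 in LSK, 7153 in preGM, 1742 in GMP and 584 in granulocytes, while 9 of 9 mature neutrophil markers summed to 358, 1911, 4521 and 59213. Primary granule genes, 4 of 5 measured, peaked in GMP at 38358. Markers of B cells (2 of 4 measured, 33.9 to 49.6 summed) and of T and NK cells (3 of 4, 48.7 to 91.6) were low at each stage. Other lists moved with the stages: 7 monocyte markers summed to 3236, 10982, 14363 and 2537, 5 megakaryocyte markers to 178, 275, 226 and 364, and the 1 measured gene of mast cells, basophils and eosinophils stood at 19.7, 12.4, 59.6 and 149. The 1 erythroid gene measured stood at 40.1, 189, 64.1 and 167, and the 1 dendritic gene at 85.1, 52.3, 50.4 and 70.8. The part of the changing cell composition in the results on the 5 genes was not tested.

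Acetylation at the 51 enhancers ran against the trend of the table. Between LSK and granulocytes the median enhancer of the table gained H3K27ac, with a log2 ratio of 0.44 (pseudocount 0.7), whereas the median over the 51 was -0.81. H3K27ac was lower by any amount at 47 of the 51, against 30% of all enhancers, and at least 2-fold lower at 16, against 1.12%. At least 2-fold higher were 0 of 51, against 26.8% of all. LSK was the stage of highest H3K27ac at 31 of 51 (60.8%, against 11.5% of all enhancers), and granulocytes at 2 (3.92%, against 48.3%).

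At Meis1 the strongest signal lay at chr11:18915038-18915633, with H3K27ac of 4.72 in LSK, 3.85 in preGM, 1.15 in GMP and 0.27 in granulocytes. Its log2 ratio of -2.49 between granulocytes and LSK was the lowest of the 51. Its neighbour at chr11:18914146-18914255 had 4.16, 2.84, 2.17 and 0.45. These values stood in the top part of the table in LSK, at percentiles 97.6 and 96.8. Of the 22 Meis1 enhancers 20 were lower in granulocytes than in LSK, 8 of them at least 2-fold, with a median of -0.76. The exceptions were the 2 neighbours at chr11:18824685-18825173 (0.44, 0.91, 0.58 and 1.02) and chr11:18825420-18825521 (1.01, 1.11, 0.45 and 1.09), which are also among the strongest PU.1 sites described below.

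The Hoxa9 enhancers differed among themselves in when H3K27ac came down. Those at chr6:52179465-52179528 (4.10 in LSK, 2.15 in preGM, 0.67 in GMP, 0.51 in granulocytes) and chr6:52180357-52180442 (3.67, 1.59, 0.41, 0.40) had already come down in GMP. The enhancer at chr6:52175293-52175367 kept 2.80, 3.19 and 2.42 through GMP and reached 0.46 in granulocytes. Its largest step was thus the last, as in Hoxa9 expression. Between LSK and preGM, however, this enhancer was slightly higher while the expression value was lower. A further enhancer, chr6:52178106-52178573, climbed from 0.64 through 0.80 to 0.97 in GMP and stood at 0.15 in granulocytes, and chr6:52183384-52183513 had 1.17, 0.37, 0.76 and 0.35. The granulocyte to GMP log2 ratio of -1.43 at chr6:52175293-52175367 was the lowest of the 51. All 7 Hoxa9 enhancers were lower in granulocytes than in LSK, 4 of them at least 2-fold, with a median of -1.20.

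Of the PRDM genes, Mecom had all 4 enhancers highest in LSK. The enhancer at chr3:30406311-30406470 had H3K27ac of 2.82 in LSK, 1.65 in preGM, 1.5 in GMP and 0.37 in granulocytes, and the distant one at chr3:29911529-29911611 had 2.54, 1.27, 0.27 and 0.37. Both were at least 2-fold lower in granulocytes, and the gene's median was -1.20. At Prdm16 all 6 enhancers were also lower in granulocytes than in LSK, but 1 of 6 at least 2-fold, with a median of -0.74. The low point there was in preGM or GMP at 5 of 6. At chr4:153905525-153905668, for instance, H3K27ac was 1.79, 0.77, 0.38 and 1.29, so that granulocytes were above GMP. At chr4:154010478-154010736 it was 1.71, 0.32, 0.48 and 0.43, and its preGM to LSK log2 ratio of -1.24 was the lowest of the 51.

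The Hlf enhancers had the smallest median difference in H3K27ac between LSK and granulocytes. The strongest, at chr11:90240925-90241277, had H3K27ac of 1.77 in LSK, 1.22 in preGM, 1.54 in GMP and 0.70 in granulocytes. Of the 12, 10 were lower in granulocytes than in LSK, 1 at least 2-fold, with a median of -0.21. The Hlf median thus lay below that of the table but nearer to it than the medians of the other 4 genes. Hlf also had the lowest median H3K27ac in LSK of the 5 genes, 0.94, against 1.28 (Meis1) to 1.81 (Mecom) for the others. With a pseudocount of 0.7, a low starting value limits how low a ratio can be. The part of this in the order of the genes was not tested.

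**Figure D2:**
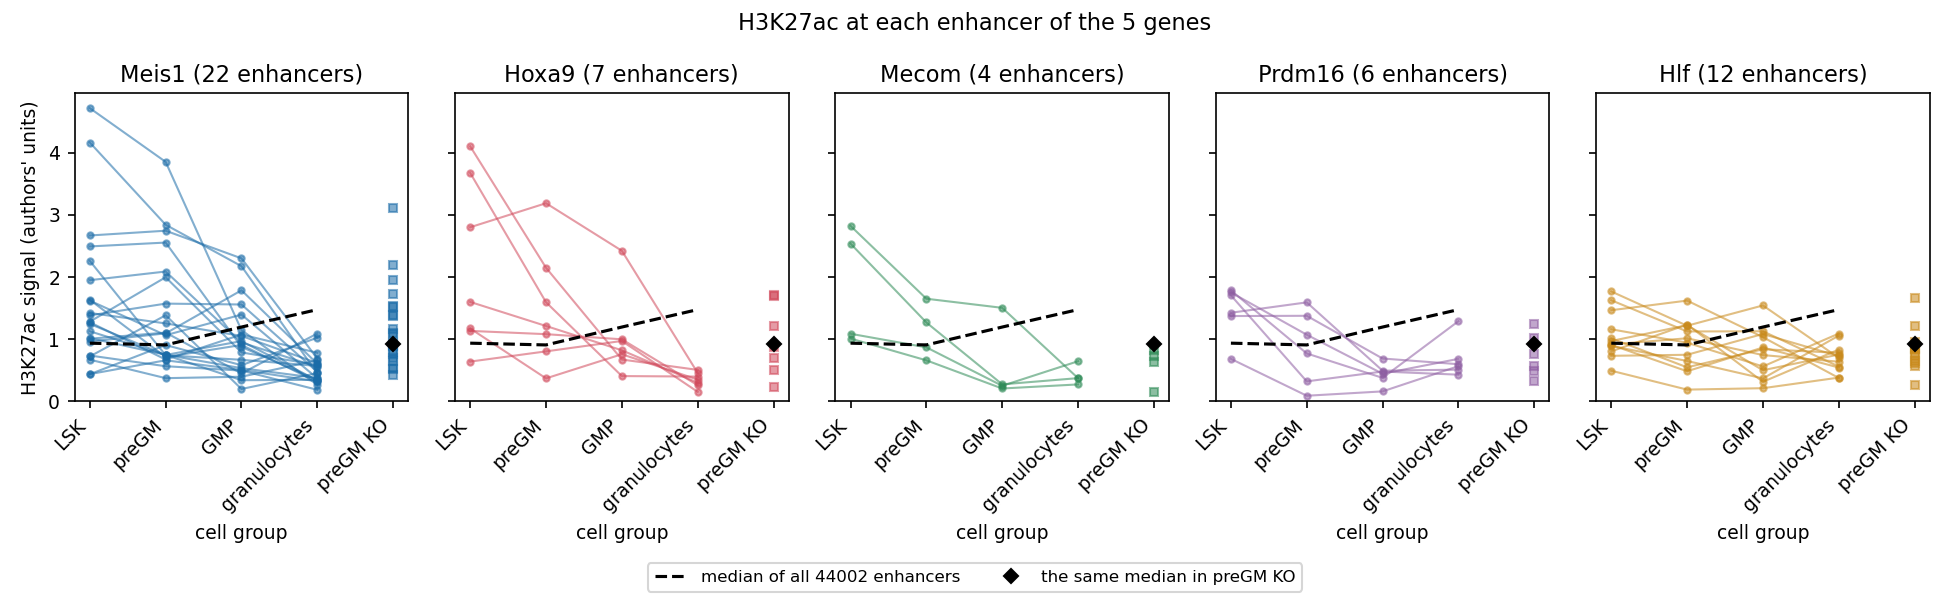
H3K27ac signal (authors' units) at each enhancer of the 5 genes; each line is 1 enhancer through the 4 wild type stages, squares are the same enhancers in KO preGM, and the dashed line and the diamond are the median of all 44002 enhancers. The table's median climbs from 0.94 in LSK to 1.48 in granulocytes, while the median of the 51 goes from 1.27 to 0.51.

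Step by step, the median difference of the 51 enhancers was of similar size, while the count of 2-fold differences was lowest between LSK and preGM. Between LSK and preGM 0 were at least 2-fold higher and 2 lower (0.72% and 0.364% of all enhancers), with a median of -0.25 against 0.03. Between preGM and GMP 0 were higher and 6 lower (9.21% and 0.411% of all), with a median of -0.25 against 0.29. Between GMP and granulocytes 0 were higher and 4 lower (14.1% and 6.05% of all), a share of lower enhancers near that of the table, with a median of -0.21 against 0.14. H3K27ac was lower at each of the 3 steps at 11 of 51 enhancers, 21.6% against 1.81% of all: 6 of Meis1, 4 of Hoxa9 and 1 of Mecom. The 2-fold counts depend on the pseudocount: the 16 lower enhancers between LSK and granulocytes became 31 with one 4 times smaller and 4 with one 4 times larger, and 32 after the table's median was subtracted. The same 3 settings gave 15, 0 and 11 lower between preGM and GMP, and 15, 0 and 9 between GMP and granulocytes.

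The larger differences in H3K4me1 at the 51 enhancers lay between GMP and granulocytes. Between LSK and preGM, and between preGM and GMP, 0 of 51 enhancers were 2-fold different in either direction (pseudocount 2), with medians of -0.04 and -0.05. Of all enhancers 0.00227% were higher and 0.00682% lower in the first of these comparisons, and 0.855% higher and 0.00227% lower in the other. Between GMP and granulocytes 12 were at least 2-fold lower and 0 higher (2.81% and 9.69% of all), with a median of -0.74 against 0.32 over the table. Between LSK and granulocytes 24 were lower and 3 higher (5.83% and 20.7% of all), with a median of -0.98 against 0.49. With a pseudocount 4 times larger the 12 and the 24 lower enhancers both became 0, and with one 4 times smaller they became 34 and 33. Granulocytes were the stage of lowest H3K4me1 at 41 of 51 enhancers (80.4%, against 22.9% of all).

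Hoxa9 had the sharpest last step, with a median granulocyte to GMP log2 ratio of -1.20. At chr6:52175293-52175367 H3K4me1 was 3.64 in LSK, 4.75 in preGM, 7.47 in GMP and 1.28 in granulocytes. The mark was thus highest in GMP, as at 4 of the 7 Hoxa9 enhancers. Mecom had a median of -1.08 for the same step, and chr3:30413768-30413815 had 5.83, 6.04, 5.97 and 1.09.

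At Prdm16 and Hlf the mark was lower at every step at more of the enhancers than not. At chr4:153915615-153915763, a Prdm16 enhancer, H3K4me1 was 5.15, 3.62, 2.29 and 0.45, and at the Hlf enhancer chr11:90226900-90227122 it was 5.13, 2.98, 1.39 and 0.54. H3K4me1 was lower at each of the 3 steps at 21 of the 51 enhancers (41.2%, against 6.58% of all), among them 4 of 6 of Prdm16 and 7 of 12 of Hlf.

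A few enhancers went the other way. H3K4me1 was at least 2-fold higher in granulocytes than in LSK at 3. These were the neighbouring Hlf enhancers at chr11:90250706-90250860 (1.90, 3.47, 5.99 and 9.65) and chr11:90251785-90251840 (2.09, 3.71, 6.52 and 9.73), and the Meis1 enhancer at chr11:18919553-18919623 (1.92, 2.70, 5.39 and 6.98). At each of these 3 H3K27ac was lower in granulocytes, with log2 ratios of -0.88, -1.01 and -1.61, so the marks moved in opposite directions. They are 3 of 7 enhancers where H3K27ac was lower and H3K4me1 higher by any amount (13.7%, against 10.8% of all). Both marks were lower at 40 of 51 (78.4%, against 19.2% of all), and both were at least 2-fold lower at 4, which were 3 of Meis1 and 1 of Hoxa9 (7.84%, against 0.243%).

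**Figure D3:**
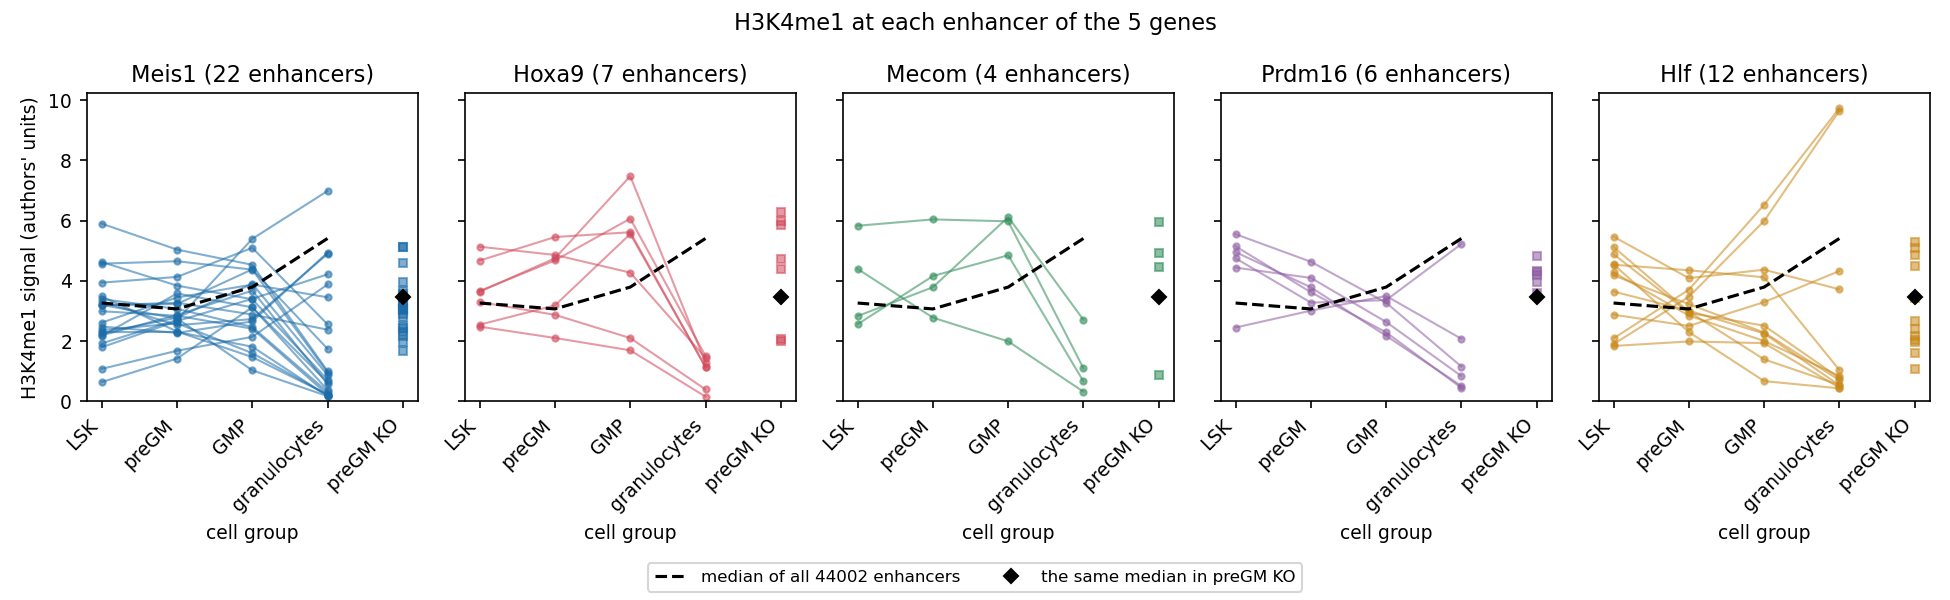
H3K4me1 signal (authors' units) at each enhancer of the 5 genes, drawn as for H3K27ac, with lines for enhancers, squares for KO preGM and black for the median of all 44002 enhancers. Most lines end near the bottom in granulocytes (median of the 51, 0.95, against 5.41 for the table), while 2 Hlf lines reach 9.65 and 9.73.

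**Figure D4:**
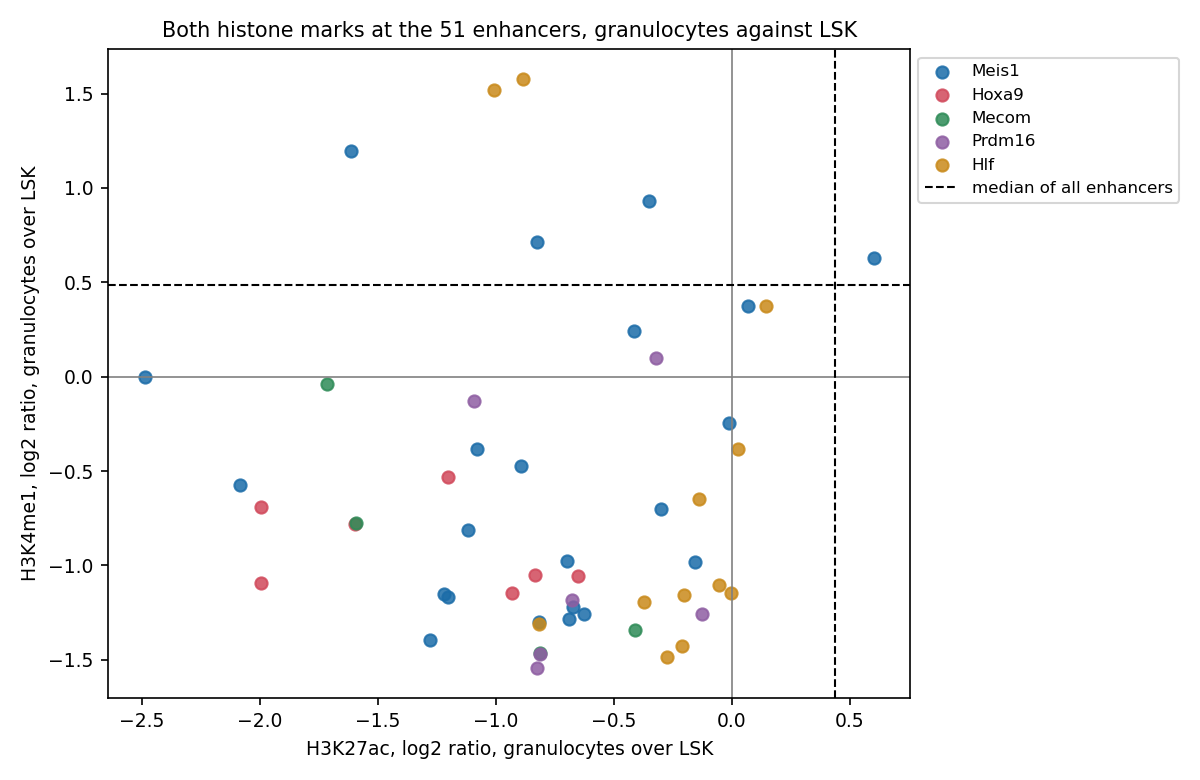
Log2 ratio of granulocytes to LSK for H3K27ac (x axis) and H3K4me1 (y axis), 1 point per enhancer coloured by gene; dashed lines are the medians of all enhancers (0.44 and 0.49). The lower left field holds 40 of the 51 points, and 7 lie at upper left with less H3K27ac and more H3K4me1.

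The stage classes that the authors gave each enhancer, for which no criterion is stated, placed most of the 51 in progenitors. The class of preGM and GMP held 28 (54.9%, against 29.1% of all enhancers), and that of LSK, preGM and GMP held 13 (25.5%, against 11.3%), among them 5 of 6 Prdm16 enhancers. The class of granulocytes alone held 1, the Hlf enhancer at chr11:90250706-90250860 (1.96%, against 21.2%). The authors' separate flags per stage differ from the classes. They marked 13 of the 51 for LSK, 39 for preGM, 19 for GMP and 3 for granulocytes. These are 25.5%, 76.5%, 37.3% and 5.88%, against 15.3%, 49.8%, 51.5% and 42.5% of all. The GMP flag was thus set at fewer enhancers than the 28 of the preGM and GMP class. The class and the H3K27ac signal do not always point to the same stage. The Meis1 enhancer at chr11:18915038-18915633, for example, was classed as GMP alone although its H3K27ac was highest in LSK, and its H3K4me1 was 0.64 in LSK and 3.12 in GMP.

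PU.1 was mapped in LSK, preGM and GMP. Of the 51 enhancers 41 were in the authors' class with neither PU.1 nor CEBPA bound (80.4%, against 59.5% of all), 5 in the class with PU.1 alone (19.1% of all), 4 with CEBPA alone (12.3%) and 1 with both (9.21%). The median PU.1 signal of the 51 was 1.02 in LSK, 0.98 in preGM and 0.77 in GMP, where the table had 0.99, 1.34 and 1.25. In preGM 6 of the 51 reached percentile 75 of the table (11.8%, against 25% of all) and 4 reached percentile 90 (7.84%, against 10%).

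The strong sites were few and were concentrated at Meis1. The enhancer at chr11:18870138-18870279, the one classed with both factors, had PU.1 signals of 34 in LSK, 44.9 in preGM and 23.1 in GMP, at percentile 99.7 in preGM. The neighbours at chr11:18824685-18825173 and chr11:18825420-18825521 had 20.2, 27.3 and 14.5, and 20.2, 27.6 and 14.5. These near-identical values belong to neighbouring regions, and whether they are independent sites was not tested. The granulocyte to LSK log2 ratios of H3K27ac at these 3 were -0.41, 0.60 and 0.07, against a median of -0.76 over the Meis1 enhancers. A ratio close to these also occurred where PU.1 was weak. At chr11:18823709-18823920, with PU.1 of 0.68 in preGM, it was -0.01. A link between PU.1 and H3K27ac was not tested.

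Hlf had a strong site at chr11:90281233-90281411, with 6.54 in LSK, 12.6 in preGM and 5.33 in GMP. Its GMP to preGM log2 ratio was -1.16 (pseudocount 0.6). At Prdm16 the enhancer at chr4:153893585-153893625 had 5.06, 6.30 and 1.79, although it was classed as unbound, while its neighbour at chr4:153893863-153894022 with 1.17, 1.92 and 0.63 was classed as bound by PU.1. Together with chr4:153915615-153915763 (3.11, 2.76 and 0.91), these Prdm16 enhancers were lower in GMP, with a median over the gene of -0.96 between preGM and GMP. Hoxa9 and Mecom had no enhancer at percentile 75 or above, and their highest preGM values were 1.62 and 1.27.

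Between LSK and preGM 0 of 51 enhancers were 2-fold different in PU.1 (6.56% of all were higher and 0.0364% lower), with a median of 0.05 against 0.30. Between preGM and GMP 4 were lower and 0 higher (0.775% and 0.768% of all), 3 of Prdm16 and 1 of Hlf, with a median of -0.21 against -0.07. With a pseudocount 4 times larger, 1 of these 4 was left. Between LSK and GMP 3 were lower, the 3 being of Prdm16, and 0 higher (0.28% and 7.33% of all), with a median of -0.25 against 0.20.

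**Figure D5:**
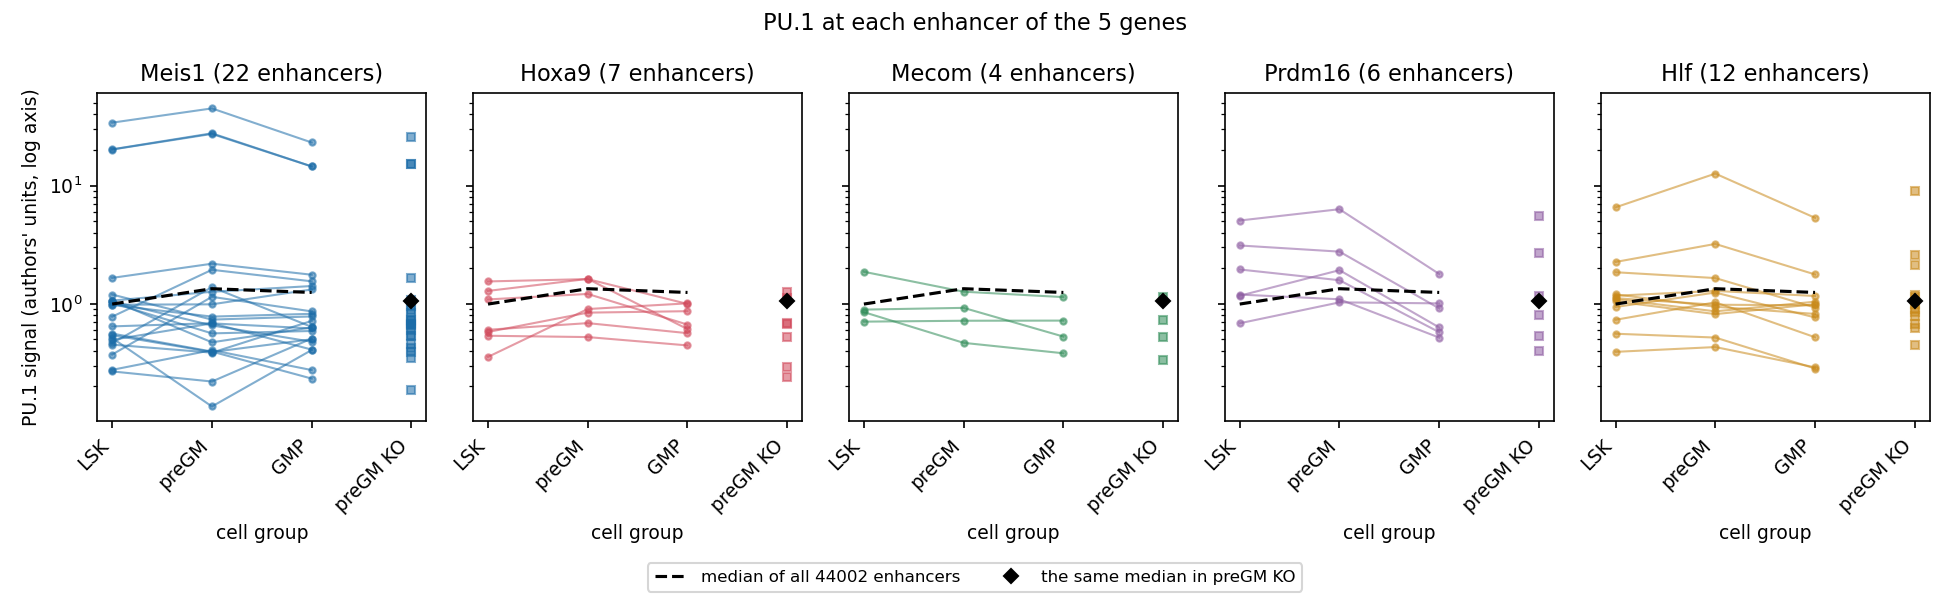
PU.1 signal (log axis, authors' units) at each enhancer of the 5 genes in LSK, preGM and GMP, with squares for KO preGM and black for the median of all 44002 enhancers. The 3 Meis1 enhancers at the top (44.9, 27.6 and 27.3 in preGM) stand far above the other enhancers of the 5 genes, of which the next highest is an Hlf enhancer at 12.6.

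CEBPA was available in wild type preGM alone. At percentile 75 of its signal or above were 9 of the 51 enhancers (17.6%, against 25% of all), and 2 were at percentile 90 or above (3.92%, against 10%). These 2 were Meis1 chr11:18776037-18776213, at 1.28, and Mecom chr3:30406311-30406470, at 1.14, which is also the most acetylated Mecom enhancer. Next came the Meis1 enhancer with the strongest PU.1 signal, chr11:18870138-18870279, at 1.01, and Hlf chr11:90227493-90227596, at 1.00. The Hoxa9 enhancer that the authors classed as bound by CEBPA, chr6:52177382-52177894, had 0.40, below the table's median of 0.53.

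In KO preGM the deposited expression value of Cebpa itself was 48.3 against 208 in wild type, a log2 ratio of -1.23 (pseudocount 70). All 5 genes had lower values in KO preGM, none of them by 2-fold on this scale (0.307% of all genes were at least 2-fold lower and 0.188% higher, and 49.2% lower by any amount). Hlf differed most, at 559 in wild type and 260 in KO. This was 2.15-fold as a plain ratio, and a log2 ratio of -0.93 with the pseudocount, just short of 2-fold on this scale. Hoxa9 had 129 and 83.3 (-0.37), Mecom 57.3 and 36.6 (-0.26), Prdm16 161 and 130 (-0.21), and Meis1 695 and 640 (-0.11). The groups also differed in markers: the summed expression of stem and multipotent progenitor markers was 3897 in wild type and 2675 in KO, of mature neutrophil markers 1634 and 430, of monocyte markers 1972 and 465, of primary granule genes 9107 and 4714, and of megakaryocyte markers 569 and 693. Such sums are set by the genes with the highest values. Of the stem and multipotent progenitor markers 1 of 6 was at least 2-fold lower in KO, with a median log2 ratio of -0.15. At least 2-fold lower were also 3 of 9 mature neutrophil markers, 4 of 7 monocyte markers and 3 of 4 primary granule genes. The part of these differences in the values of the 5 genes was not tested.

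At the enhancers, few KO differences reached 2-fold. H3K27ac was at least 2-fold lower at 1 of 51 and higher at 0 (0.47% and 0.441% of all enhancers), with a median of -0.21 against 0.05; the 1 became 7 with a pseudocount 4 times smaller and 0 with one 4 times larger. The 1 was Meis1 chr11:18862203-18862738, at 2.00 in wild type and 0.53 in KO (-1.13). At Mecom 4 of 4 enhancers were lower in KO by any amount, against 45.2% of all, with a median of -0.61, among them chr3:30406311-30406470 with its high CEBPA signal, at 1.65 and 0.73 (-0.72). The other enhancers named above for high CEBPA signal went both ways. Meis1 chr11:18776037-18776213 was lower in KO (-0.37), while Meis1 chr11:18870138-18870279 (0.23) and Hlf chr11:90227493-90227596 (0.61) were higher. At Hoxa9 6 of 7 were lower (median -0.28), with 3.19 and 1.71 at chr6:52175293-52175367. At Prdm16 4 of 6 were higher (median 0.18).

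H3K4me1 was 2-fold different at 0 of 51 (0% of all were higher and 0.00909% lower), with a median of 0.05 against 0.10 over the table, so the direction of the median turns when the table's median is subtracted. The lowest ratio was at Mecom chr3:30404160-30404411, with 2.78 in wild type and 0.87 in KO (-0.73), where H3K27ac was 0.66 and 0.16.

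PU.1 was 2-fold different at 0 of 51, where 6.15% of all enhancers were lower and 0.0955% higher in KO. The median of the 51, -0.19, lay slightly above that of the table, -0.27. The strongest Meis1 site, chr11:18870138-18870279, had 44.9 in wild type and 25.5 in KO (-0.80), and the neighbouring pair 27.3 and 15.3, and 27.6 and 15.3 (-0.81 and -0.83). The Hlf site at chr11:90281233-90281411 had 12.6 and 9.0 (-0.46), and the Prdm16 site at chr4:153893585-153893625 had 6.30 and 5.52 (-0.17). The lowest ratio, -0.98, was at Hoxa9 chr6:52180357-52180442, with 1.62 and 0.52.

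The genes with enhancer signals most like those of each member were found over 14 columns of H3K27ac, H3K4me1 and PU.1 among 4735 genes with at least 3 enhancers. The columns come from shared libraries, so the correlations are descriptions. Meis1 and Hoxa9 lie on different chromosomes, yet each was at or near the top of the other's order with r = 0.967. Hoxa7 was first for Meis1 (0.969) and Hoxa3 second for Hoxa9 (0.946); both are neighbours of Hoxa9 in the HoxA cluster. Kdr, a receptor of vascular endothelial growth factor, came after Hoxa7 and Hoxa9 for Meis1 (0.940). Mecom was most like Hoxa9 (0.915), then Procr (0.905), which encodes a surface receptor used to sort stem cells, and Hoxa3 (0.893).

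Prdm16 and Hlf formed another pair, with r = 0.909. Prdm16 was most like Spry4 (0.931) and Rapgef4 (0.920), and Hlf like Rapgef4 (0.918), then Prdm16, then Procr (0.908). Meis1 and Prdm16, in contrast, had r = 0.651. In expression, over 6 columns and 10096 genes, Mecom and Hlf were close, at a distance of 0.706 on the centred log2 scale, and Mecom was second in the order of Hlf after Epb4.1l4b (0.676). Nearest to Meis1 was Gpr56 (0.539), an adhesion receptor gene, to Mecom Slc35d3 (0.340), to Hoxa9 Cnn3 (1.37) and to Prdm16 Eef2 (0.111). Prdm16 varied little on this scale, where a pseudocount is added to its low values.

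The relatives of the 5 genes were followed at the enhancer with the highest mean signal of each gene. Between LSK and granulocytes their counts stand against 1.12% of all enhancers lower and 26.8% higher in H3K27ac, and 15.6% of all genes lower and 12.6% higher in expression. The enhancer shares cover weak enhancers too, whereas the lists take only the strongest of each gene, so these are not like for like. Of 25 homeobox partners and relatives 18 were in the table. Between LSK and granulocytes 2 of 18 were at least 2-fold lower in H3K27ac and 2 higher, with a median of -0.48. The lower ones were Hoxa7 (3.57 in LSK and 0.64 in granulocytes, -1.68) and Hoxa3 (3.53 and 0.75, -1.55), from the same cluster as Hoxa9. The higher ones were Pbx2 (1.52 and 5.36, 1.45) and Pknox1 (0.93 and 3.31, 1.30), which encode proteins of the PBX and MEIS classes, and these 2 were also the 2 of 18 at least 2-fold higher in expression, a share near that of all genes, while 0 of 18 were lower.

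Of 13 PRDM relatives 9 were in the table. H3K27ac was at least 2-fold higher in granulocytes than in LSK at 4 of 9, against 26.8% of all enhancers, and lower at 0, with a median of 0.89. The highest was Prdm2 (3.17 in LSK and 17.5 in granulocytes, 2.23), whose expression value was nevertheless lower in granulocytes, at 119 against 222. Prdm15 (1.38), Prdm1 (1.34) and Prdm9 (1.28) were the others, and 0 of 9 were 2-fold different in expression. Of the 3 relatives of Hlf, Nfil3, which encodes a repressor that binds PAR family sites, was higher in both H3K27ac (1.02 and 17.5, 3.41) and expression (36.3 and 151, 1.45). Dbp was lower in expression (155 and 57, -1.09), and Tef was 2-fold different in neither.

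Chromatin regulators and corepressors that work with these factors, 8 of 8 measured, had 2 genes higher in H3K27ac between LSK and granulocytes and 0 lower: Kmt2a (1.49 and 7.54, 1.91), which encodes the methyltransferase upstream of the Hox genes, and Ctbp1 (1.27). The share of higher genes, 2 of 8, was near the 26.8% of all enhancers. In expression 2 of 8 were lower, Hdac2 (-2.43) and Psip1 (-1.74), against 15.6% of all genes, and 0 higher. Of the 13 other stem and progenitor transcription factors, all measured, 2 were lower in H3K27ac, Sox4 (2.90 and 0.27, -1.90) and Gata2 (2.81 and 0.94, -1.10), and 3 higher, Runx1 (1.94), Bmi1 (1.19) and Fli1 (1.08), with a median of -0.08. The table had 1.12% lower and 26.8% higher, so that the 3 of 13 higher were near its share. In expression 6 of 13 were lower, against 15.6% of all genes, led by Sox4 (1546 and 57.5, -4.17), Bmi1 (-3.16), Lmo2 (-2.78) and Myb (-2.35), and 1 higher, Fli1 (1.11).

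In KO preGM these 13 factors had PU.1 at least 2-fold lower at 5, against 6.15% of all enhancers: Myb (8.53 in wild type and 2.17 in KO, -1.72), Sox4 (-1.29), Etv6 (-1.18), Lmo2 (-1.15) and Fli1 (-1.13). Each gene entered with its enhancer of highest mean PU.1 signal, whereas the share covers all enhancers, weak ones included. Count and share are therefore not like for like. In expression 0 of 13 were 2-fold different in KO.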

How the data were processed

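Chromatin immunoprecipitation sequencing (ChIP-seq) and RNA-seq of sorted mouse bone marrow cells were summarised by the authors in a deposited table with 1 signal value per enhancer and group. Per the submitters' processing notes, the authors' ChIP-seq tools were Bowtie2, MACS2 and bedtools, and the authors' RNA-seq tools were STAR, featureCounts, DESeq2 and bedtools. The build was mm9, and versions are not stated there. No source used here says how libraries were pooled and scaled into the signal, or what unit the deposited expression values have. These are never 0 (lowest 2.04), never whole and were read as linear.

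Of 32 value columns, 15 of signal and 6 of expression were used, matched to groups by the assay, stage and genotype in their names. The other 11 were left out, 6 because their quantity is not described and 5 because no listed sample matches. Colony-forming progenitors and monocytes were not analysed here. Samples fall into groups by their labels, 2 libraries per ChIP-seq group and 3 per RNA-seq group.

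Each comparison is a log2 ratio after a pseudocount was added to both values: the assay's 25th percentile at 1 significant digit, which gave 0.7 for H3K27ac, 2 for H3K4me1, 0.6 for PU.1, 30 for the stage set of expression values and 70 for the genotype set. A difference of 2-fold or more was counted and set beside the share of all 44002 enhancers or 10096 genes past the same limit. Depth is unknown and no test or interval was possible. Other pseudocounts, centring, a filter on low values and another choice of enhancer were tried. The ratio and the count were run on copies of the wild type preGM signal columns with added noise and planted differences larger than 2-fold. This checked the direction of calls and the false calls, and not how the 2-fold counts shift with the pseudocount.

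The rule for names took the 5 genes whatever their values. Of each it took the enhancers with the highest mean H3K27ac, mean PU.1 or CEBPA signal and, per comparison, those with the highest and lowest ratio. It also took the 3 genes most like each member, and of each list at most 4 genes at least 2-fold different in the main direction and 2 in the other, by size of the ratio at the enhancer with the highest mean signal. Other enhancers named, such as neighbours of these or further examples of a pattern, were chosen after their values were seen. The members, lists and rules were chosen with earlier results of these data known. No genome of build mm9 was used, so no enhancer sequence or exon position is given. Software was Python 3.11.15, numpy 2.4.6, pandas 2.3.3 and matplotlib 3.10.9.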

Additional observations from a re-analysis of the deposited data

How the results depend on the processing

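No paired analysis was possible because the table holds 1 pooled value per group, so neither a replicate block nor leaving out a replicate could be run. Over all alternatives, 126 recomputed counts stayed within 1.5 times the main count and 37 did not. Of the recomputed log2 ratios, 332 differed from the main value by less than 1.5-fold, 47 by more, and 1 by more with a turn of direction. A small ratio could also turn its direction within that range. For the mean signal over the gene's enhancers, H3K27ac of preGM over LSK at Hoxa9 went from 0.15 to -0.39. The cause was not tested for any of these, and depth is unknown. The filter on enhancers of low signal left 28 of 28 counts within that range. A count of 0 could not change under this filter. A 2-fold difference after the pseudocount also needs a fairly high value in 1 group, so the filter says little about low signal. With a pseudocount 4 times smaller, the enhancers at least 2-fold lower in H3K27ac were 7 (preGM over LSK), 15 (GMP over preGM), 15 with 5 higher (granulocytes over GMP), 31 (granulocytes over LSK) and 7 (KO). For H3K4me1 they were 2 (GMP over preGM), 34 (granulocytes over GMP) and 1 (KO), with 5 higher in granulocytes over LSK. For PU.1, 4 were higher and 1 lower (preGM over LSK), 1 higher (GMP over LSK), and 1 higher and 5 lower (KO). In expression 1 gene was lower in preGM over LSK and 1 in KO. With a pseudocount 4 times larger, H3K27ac was lower at 0 (preGM over LSK), 0 (GMP over preGM), 0 (granulocytes over GMP), 4 (granulocytes over LSK) and 0 (KO). H3K4me1 was lower at 0 (granulocytes over GMP), and lower at 0 and higher at 0 (granulocytes over LSK). PU.1 was lower at 1 (GMP over preGM) and 0 (GMP over LSK), and 1 gene was lower in expression in granulocytes over GMP. After the median of all features was subtracted, H3K27ac was lower at 11 (GMP over preGM), 9 (granulocytes over GMP) and 32 (granulocytes over LSK), H3K4me1 at 31 (granulocytes over GMP), PU.1 was higher at 1 (KO), and expression was lower for 1 gene in granulocytes over GMP, as it was among genes at or above the median level. A pseudocount of 0.6 for H3K27ac, chosen after seeing the data, gave 8 lower in granulocytes over GMP. At percentile 90 of CEBPA signal or above, in place of percentile 75, stood 2 enhancers in place of 9. The H3K4me1 ratio of granulocytes over LSK at the strongest Hlf enhancer, 1.52, became -0.29 for the mean signal over the gene's 12 enhancers.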
